A study of Saccharomyces cerevisiae with 6 samples.

Results

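The proteasome genes are described here as they were measured on 6 Affymetrix yeast arrays. The list holds 39 genes, among them the subunits of the core particle and of the base and lid of the regulatory particle. The small lid subunit SEM1 is not in it. The list also holds 4 assembly chaperones, the proteasome-binding proteins BLM10 and ECM29, and the transcription factor RPN4. They were taken by symbol from the platform annotation, of which only probe sets naming 1 gene were used, and the brightest probe set stood for a gene with several. All 39 of the 5656 genes named in this way had such a probe set, and 38 were among the 4242 genes tested. HSM3, a chaperone of base assembly, was not tested because it lay in the lowest 25% of genes by mean signal. PRE2, which lies beside FHL1, is given apart from the rest, so counts over the list rest on the other 37 tested genes.

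The proteasome degrades proteins that carry ubiquitin chains. Its core particle is a barrel of stacked rings, with outer alpha rings that gate the entrance and inner beta rings that hold the peptidase sites. The regulatory particle caps the barrel: its base contains a ring of ATPases that unfold the substrate, and its lid contains the enzyme that removes the ubiquitin chain. Subunits are needed in fixed proportions and are put together by dedicated chaperones. In Saccharomyces cerevisiae the factor Rpn4 activates most of these genes, and Rpn4 protein is itself a short-lived substrate of the proteasome. The arrays measure transcripts and not proteins.

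Total RNA came from cells of 3 groups grown at 30 °C: FHL1 deletion (2 arrays), FHL1 IFH1 double deletion (2 arrays) and wild type (WT, 2 arrays). FHL1 encodes a forkhead-type protein bound at ribosomal protein gene promoters and IFH1 its coactivator. The comparisons ask which transcripts differ without FHL1, which differ without both, and what the loss of IFH1 adds. The sources used here do not give the strain background, the medium or the making of the deletions. They also do not say whether the arrays of a group came from separate cultures. The 2 arrays of each mutant differ in mating type transcripts, as given below, and so came from different strains. P-values measure the spread between these arrays, which in the mutants includes that difference and in WT may be technical. RNA was taken from whole cultures, so a change in a share of the cells and a smaller change in all cells cannot be told apart.

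Values below are scaled log2 signals, with the 1st and 2nd array of a group in the order of the experiment numbers in the labels, and differences are between group means on that log2 scale (n = 2 arrays each). They are relative to the median of each array. "Rose" and "fell" are used for a limma adjusted p below 0.05, adjusted over all 4242 genes. FHL1 lay under the measurement floor on every array, with deposited values of 3.18 and 2.67 in the FHL1 deletion, 2.66 and 2.89 in double deletion cells, against 4.91 and 5.02 in WT. Both double deletion arrays had IFH1 at the floor (5.63), while it had 8.91 and 8.92 in FHL1 deletion cells and 8.38 and 8.63 in WT. Exactly equal values in 502 to 859 probe sets link WT of the first experiment, the FHL1 deletion of the second and the double deletion of the first, called set A. The other 3 arrays, which share 1 equal value at most, are called set B. In set B, both mutant arrays carried transcripts of MATa cells, with all 5 MATa markers above and all 4 MATalpha markers below the other 4 arrays, on which STE2 and AGA2 of the MATa list lay at the floor. The 2 arrays of each mutant therefore differ in mating type and came from different strains, and all WT arrays have MATalpha transcripts. Bacterial control probe sets (9) had scaled medians of 7.58 and 7.65 in the FHL1 deletion, 7.88 and 7.39 in double deletion cells, and 8.45 and 8.37 in WT. The 3' minus 5' signal of SRB4, which grows as RNA is degraded or labelled short, was 2.39 and 3.09 in the FHL1 deletion, 2.70 and 1.89 in double deletion cells, and 2.25 and 1.52 in WT, and that of ACT1 lay between 0.93 and 1.15 on all arrays. The part of these array properties in the results was not tested.

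In the FHL1 deletion most proteasome genes lay slightly above WT and few of them passed the test. Of the 37 genes without PRE2, 5 rose (PRE8, PRE5, RPN13, RPN8 and UMP1), 2 fell (BLM10 and ECM29) and 30 did not pass. Of all genes tested 12.9% rose and 8.42% fell, so the 13.5% of proteasome genes that rose is close to the background. The difference lay above 0 for 31 of the 37 (83.8%), against 52.2% of all genes, and the arrays of the groups did not overlap for 20 genes in the upward direction (background 34.1%) and for 3 in the downward direction (background 29.5%). The median difference was 0.24, against 0.024 over all genes. Within set A it was 0.22 and within set B 0.29, against 0.0030 and 0.035 over all genes. In both sets 27 of the 37 genes lay above 0, as did 1807 of all 4242 genes tested. Taking set as a block in the fit, 14 of the 37 rose and 2 fell, where 23.7% and 17.9% of all genes did so. PRE9, PRE10, PRE3, PUP1, PUP3, RPN5, RPN9, RPN12 and RPN14 were the 9 that passed with the block and not without it. Of these, PRE3, RPN9 and RPN12 also passed with the deposited scaling.

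Of the same 37 genes, 2 passed in the double deletion. UMP1 rose, BLM10 fell and 35 genes did not pass, while 9.78% of all genes rose and 8.46% fell. The difference lay above 0 for 27 of the 37 genes (73.0%), against 50.5% of all genes. Arrays did not overlap for 14 genes upward (background 31.5%) and 4 downward (background 29.4%). The median difference was 0.14 (set A 0.078, set B 0.16), against 0.0054 over all genes. With set as a block 5 genes rose (PRE8, PRE3, PUP1, RPN8 and UMP1) and 3 fell (NAS6, BLM10 and ECM29), where 19.2% and 18.0% of all genes did so. Both comparisons use the same 2 WT arrays, so they are not independent of each other.

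**Figure D1:**
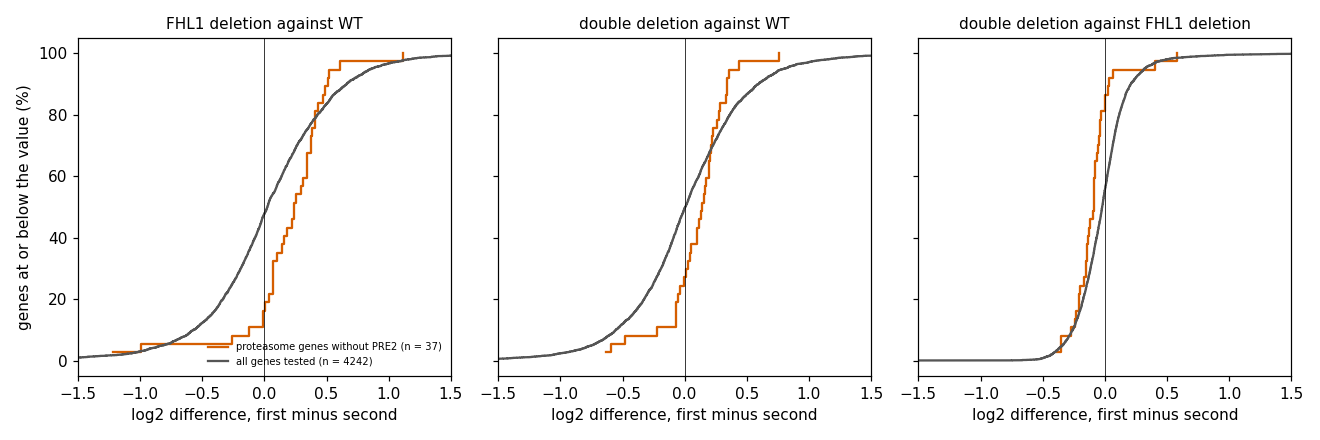
Cumulative share of genes (vertical axis, percent) at or below each log2 difference (horizontal axis) for the 37 proteasome genes without PRE2 and for all 4242 genes tested, in the FHL1 deletion against WT, the double deletion against WT and the double deletion against the FHL1 deletion. The proteasome curve lies to the right of all genes in the first 2 panels (medians 0.24 and 0.14) and slightly to the left in the third (-0.087).

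The spread between the 2 WT arrays over these genes was close in size to the medians above. The second minus the first WT array had a median of -0.18 over the 38 listed genes other than PRE2, the untested HSM3 included. Of these 8 lay above 0, and the median over all genes tested was -0.032. For PRE2 itself the second WT array lay above the first by 0.47. Between the arrays of the FHL1 deletion (second minus first) the median was 0.085, and between those of the double deletion -0.089. The second array is of set B in WT and the double deletion, and of set A in the FHL1 deletion. By these medians the set A array lay above the set B array in every group. Leaving out a WT array leaves WT in 1 set only, and the part of this in the medians that follow was not tested. Without the second WT array the median difference of the FHL1 deletion was 0.15 and no proteasome gene other than PRE2 passed the test, where 3.04% of all genes rose and 2.90% fell. Without the second WT array, the calls named below that still passed were those of PRE2, POC4 and UBC5 in the FHL1 deletion, and those of PRE2 and UBC5 in the double deletion. Without the first WT array the median of the FHL1 deletion was 0.34. Whichever single array was left out, fewer proteasome genes rose in the FHL1 deletion than with all arrays, and a smaller share of all genes did so. Under every alternative setting in which they were tested, BLM10 differed by -1.10 to -0.62 and ECM29 by -1.30 to -1.11 in the FHL1 deletion. ECM29 was tested in 18 of the 20 settings, all on the same probe set, and its probe sets differ among themselves, as given below. In the double deletion the median was 0.035 without the second WT array, 0.25 without the first, 0.066 without the first double deletion array and 0.21 without the second. The 4 arrays with MATalpha transcripts alone, with 1 array per mutant, gave medians of 0.28 for the FHL1 deletion and 0.21 for the double deletion.

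**Figure D2:**
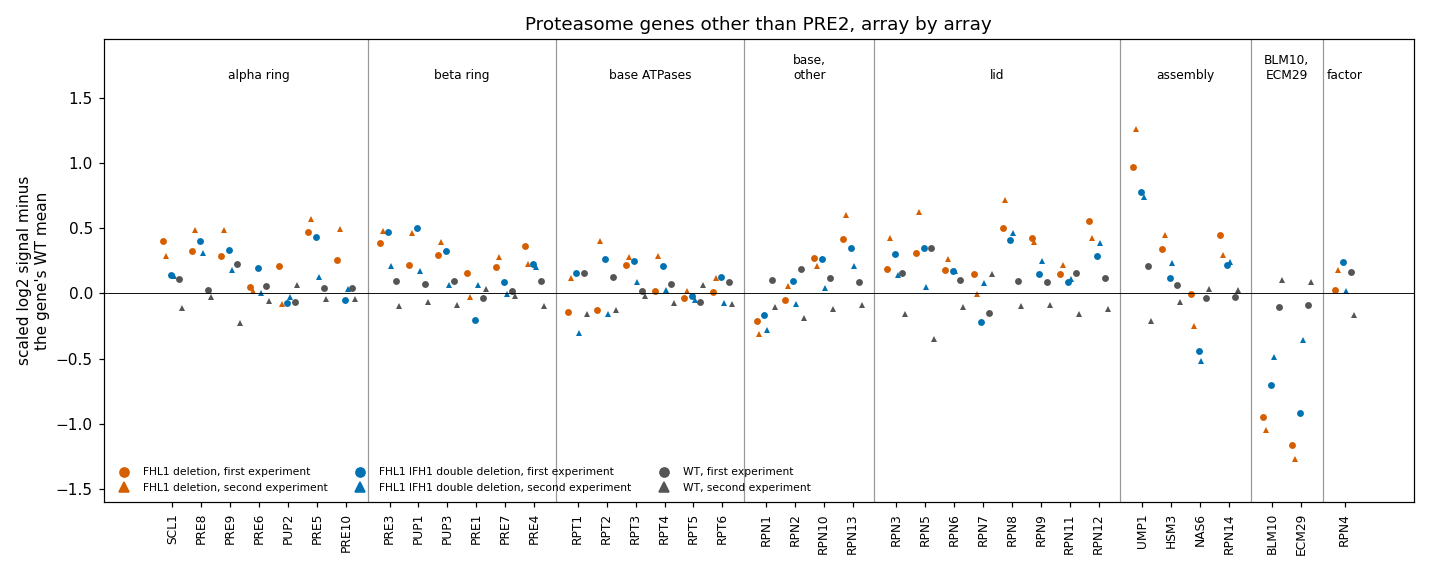
Scaled log2 signal of each proteasome gene other than PRE2, minus the gene's WT mean (vertical axis), by gene in the order of the complex (horizontal axis). Orange is the FHL1 deletion, blue the double deletion and grey WT, with circles for the first and triangles for the second experiment. UMP1 stands above WT by 1.11 and 0.76, BLM10 and ECM29 stand below it on every mutant array, and most other genes lie within 0.5 of the WT mean.

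PRE2 encodes the beta subunit with the chymotrypsin-like peptidase site, and it fell far more than any other proteasome gene measured here. Its signal was 8.61 and 8.27 in the FHL1 deletion, 8.07 and 8.16 in double deletion cells, and 10.32 and 10.80 in WT. All 4 mutant arrays lay below both WT arrays, with group means of 8.44 ± 0.24 in the FHL1 deletion, 8.12 ± 0.06 in double deletion cells and 10.56 ± 0.34 in WT (SD, n = 2 each). The difference was -2.12 in the FHL1 deletion (SE 0.20, limma adjusted p = 0.0025), a level 4.36-fold lower, and -2.44 in the double deletion (SE 0.20, adjusted p = 0.0014), 5.43-fold lower. Of the 4242 genes, it had the 13th lowest difference in the FHL1 deletion and the 5th lowest in the double deletion. It fell under all 20 alternative settings in both comparisons, with differences between -2.36 and -1.89 in the FHL1 deletion and between -2.68 and -2.20 in the double deletion. In set A the difference was -2.06 for the FHL1 deletion and -2.25 for double deletion cells, and in set B -2.19 for the FHL1 deletion and -2.63 for double deletion cells. The double deletion differed from the FHL1 deletion by -0.32 (95% confidence interval -0.79 to 0.15, adjusted p = 0.98).

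PRE2 (YPR103W) is next to FHL1 (YPR104C) on chromosome XVI, and the strand letters of their systematic names place them end to end on opposite strands. Every mutant array carries the FHL1 deletion, so an effect of the deleted stretch on its neighbour and an effect of the loss of the Fhl1 protein cannot be told apart. Of the 5 annotated genes on either side of FHL1, 7 were tested, PRE2 among them, and YPR099C, RPL11A and YNCP0016W had no probe set naming them alone. On the PRE2 side, MRPL51, a mitochondrial ribosomal protein gene, had 8.90 and 8.59 in the FHL1 deletion, 8.48 and 8.66 in double deletion cells, and 9.21 and 9.39 in WT. It fell in the double deletion (-0.73, adjusted p = 0.028) and differed by -0.55 in the FHL1 deletion (adjusted p = 0.052). SNT309, a splicing factor gene, rose in the FHL1 deletion by 0.62 (adjusted p = 0.031). On the other side, COG4, the nearest gene, differed by 0.12 and 0.011 in the FHL1 and double deletions (adjusted p = 0.56 and 0.96). YTH1, an mRNA cleavage factor gene, rose by 1.18 in the FHL1 deletion (adjusted p = 0.013), ISR1, a kinase gene, differed by 0.74 (adjusted p = 0.055), and the lid gene RPN7, the 4th gene from FHL1, by 0.070 (adjusted p = 0.81). Neighbours thus lay on both sides of WT, and the largest difference among the tested neighbours other than PRE2 was 1.18 (YTH1, FHL1 deletion).

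**Figure D3:**
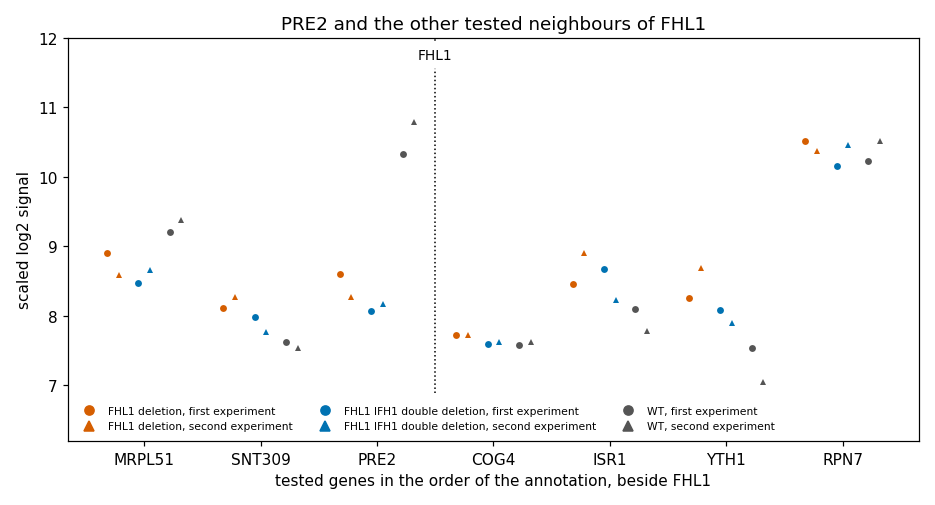
Scaled log2 signal (vertical axis) of the tested genes beside FHL1 in the order of the annotation (horizontal axis), array by array, with FHL1 itself marked by the dotted line. PRE2 lies between 8.07 and 8.61 on the mutant arrays and at 10.32 and 10.80 in WT, while its neighbours shift less and in either direction.

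Of the 7 alpha ring genes, PRE8 and PRE5 rose in the FHL1 deletion, none fell and 5 did not pass, with a median difference of 0.38. PRE5 had 11.42 and 11.52 in the FHL1 deletion, 11.38 and 11.08 in double deletion cells, and 10.99 and 10.90 in WT. Its difference was 0.52 in the FHL1 deletion (SE 0.15, limma adjusted p = 0.044) and 0.28 in double deletion cells (adjusted p = 0.23). PRE8 had 11.95 and 12.12 in the FHL1 deletion, 12.03 and 11.94 in double deletion cells, and 11.65 and 11.60 in WT, and every mutant array lay above both WT arrays. Its differences were 0.41 (SE 0.12, adjusted p = 0.049) and 0.36 (adjusted p = 0.078). PRE8 passed in the FHL1 deletion under 9 of 20 alternative settings and PRE5 under 12. PRE10, at 10.51 and 10.75 in the FHL1 deletion, 10.20 and 10.29 in double deletion cells, and 10.29 and 10.21 in WT, had differences of 0.38 from WT in FHL1 deletion cells (adjusted p = 0.11) and -0.0082 in double deletion cells. SCL1 (0.34) and PRE9 (0.39, the one alpha subunit that yeast can live without) also had FHL1 deletion arrays above both WT arrays. PRE6 (0.034) and PUP2 (0.066) overlapped WT, and PRE6 turned to -0.015 when arrays were set to the median over genes. In the double deletion the alpha ring median was 0.14 and no gene passed.

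Among the beta ring genes other than PRE2, none of 6 passed in either mutant. Their median differences were 0.32 in the FHL1 deletion and 0.20 in double deletion cells. PRE3 and PUP1 encode the other catalytic subunits, with caspase-like and trypsin-like sites. PRE3 had 11.55 and 11.63 in the FHL1 deletion, 11.62 and 11.37 in double deletion cells, and 11.26 and 11.06 in WT, so both mutants lay above WT, by 0.43 (SE 0.14, adjusted p = 0.072) and 0.34 (adjusted p = 0.15). PUP1 had 11.28 and 11.53 in the FHL1 deletion, 11.57 and 11.24 in double deletion cells, and 11.14 and 11.00 in WT, a difference of 0.34 in each mutant. Of the 3 catalytic subunit genes, PRE2 thus lay below WT and PRE3 and PUP1 above WT on every mutant array. PUP3 (0.34), PRE4 (0.29) and PRE7 (0.24) had FHL1 deletion arrays above both WT arrays, and PRE1 (0.065) overlapped WT.

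The base holds 6 ATPase genes. None passed in either mutant on the probe sets used, and their medians were 0.10 in the FHL1 deletion and 0.040 in double deletion cells. RPT1 had 11.33 and 11.59 in the FHL1 deletion, 11.63 and 11.17 in double deletion cells, and 11.63 and 11.31 in WT. RPT5 had 10.31 and 10.36 in the FHL1 deletion, 10.33 and 10.29 in double deletion cells, and 10.29 and 10.41 in WT. RPT6 had 11.14 and 11.25 in the FHL1 deletion, 11.26 and 11.06 in double deletion cells, and 11.22 and 11.05 in WT. For these 3 genes the groups overlapped, with 95% confidence intervals of the FHL1 deletion difference of -0.48 to 0.45, -0.32 to 0.30 and -0.26 to 0.39. RPT2 (0.14) and RPT4 (0.16) overlapped WT as well, and RPT3 (0.25) was the 1 ATPase gene whose FHL1 deletion arrays both lay above WT.

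The other base genes include the scaffold subunits RPN1 and RPN2 and the ubiquitin receptors RPN10 and RPN13. RPN13 rose in the FHL1 deletion. Its signal was 11.27 and 11.46 in the FHL1 deletion, 11.20 and 11.06 in double deletion cells, and 10.94 and 10.76 in WT, with differences of 0.51 (SE 0.14, adjusted p = 0.043) and 0.28 (adjusted p = 0.22). It passed in the FHL1 deletion under 10 of 20 alternative settings. RPN10 differed by 0.24 and 0.15 without passing. RPN2 had 10.29 and 10.41 in the FHL1 deletion, 10.45 and 10.26 in double deletion cells, and 10.54 and 10.16 in WT, and group means of 10.35 in each group. RPN1 was the 1 subunit gene other than PRE2 whose mutant arrays all lay below WT, by -0.26 and -0.22, and it did not pass (adjusted p = 0.24 and 0.32).

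All 8 listed lid genes had differences above 0 in the FHL1 deletion, against 52.2% of all genes, and their median was 0.36. RPN8 alone of the 8 passed there, where 12.9% of all genes rose. The lid subunit gene SEM1, outside the list, is given below and also rose there. RPN8, the partner of the deubiquitinase subunit Rpn11, had 9.57 and 9.78 in the FHL1 deletion, 9.48 and 9.53 in double deletion cells, and 9.17 and 8.97 in WT. Every mutant array lay above both WT arrays, and the differences were 0.61 (SE 0.15, adjusted p = 0.031) and 0.44 (adjusted p = 0.086). It passed in the FHL1 deletion under 16 of 20 alternative settings. RPN12 (0.49, adjusted p = 0.055), RPN9 (0.41, adjusted p = 0.075), RPN3 (0.31) and RPN6 (0.22) also had FHL1 deletion arrays above WT. The others overlapped WT: RPN5 differed by 0.47, with an SD of 0.49 between the WT arrays, RPN11, the deubiquitinase itself, by 0.18, and RPN7 by 0.070. In the double deletion the median of the 8 listed lid genes was 0.20.

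UMP1, a chaperone that joins the assembling core particle and is degraded when the core is complete, rose in both mutants and had the highest difference of the 38 tested genes in each. It had 9.12 and 9.41 in the FHL1 deletion, 8.94 and 8.90 in double deletion cells, and 8.37 and 7.94 in WT, and every mutant array lay above both WT arrays. The means were 9.27 ± 0.21 in the FHL1 deletion, 8.92 ± 0.03 in double deletion cells and 8.15 ± 0.30 in WT (SD, n = 2 each). The difference was 1.11 in the FHL1 deletion (SE 0.19, adjusted p = 0.0087), 2.16-fold, and 0.76 in the double deletion (SE 0.19, adjusted p = 0.035), 1.69-fold. In the FHL1 deletion it passed under 19 of 20 alternative settings, the exception being without the second WT array (0.90, adjusted p = 0.056), and in the double deletion under 15 of 20. Of the base chaperones, RPN14 and NAS6 did not pass in either mutant. RPN14 differed by 0.37 in the FHL1 deletion and 0.23 in double deletion cells (adjusted p = 0.12 and 0.34). NAS6 had 9.70 and 9.46 in the FHL1 deletion, 9.27 and 9.19 in double deletion cells, and 9.67 and 9.75 in WT, with differences of -0.13 and -0.48 (adjusted p = 0.57 and 0.062). HSM3, untested, had 7.40 and 7.50 in the FHL1 deletion, 7.17 and 7.29 in double deletion cells, and 7.12 and 6.99 in WT.

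Further proteasome factors outside the 39 genes were listed by their known roles, 12 in all, of which 11 were tested. In the FHL1 deletion 6 of them rose and none fell, with a median difference of 0.66, where 12.9% of all genes rose and 8.42% fell. In the double deletion 4 rose and none fell, with a median of 0.51, where 9.78% of all genes rose and 8.46% fell. The 3 with the smallest p in the FHL1 deletion were POC4, IRC25 and SPG5. IRC25 and POC4 form a chaperone pair that helps to build the alpha ring. POC4 had 10.96 and 11.14 in the FHL1 deletion, 10.80 and 10.82 in double deletion cells, and 10.20 and 10.17 in WT, and it rose by 0.86 (SE 0.13, adjusted p = 0.0067) and 0.62 (adjusted p = 0.023). IRC25 had 9.56 and 9.68 in the FHL1 deletion, 9.36 and 9.41 in double deletion cells, and 8.83 and 8.73 in WT. It rose by 0.84 (adjusted p = 0.0078) and 0.60 (adjusted p = 0.027). SPG5, known for a part in proteasome assembly in stationary phase, rose by 0.96 in the FHL1 deletion (adjusted p = 0.025) and differed by 0.75 in the double deletion (adjusted p = 0.055). PBA1 and ADD66, the other alpha ring chaperone pair, rose in both mutants, PBA1 by 0.66 and 0.69 (adjusted p = 0.035 and 0.036) and ADD66 by 0.76 and 0.69 (adjusted p = 0.033 and 0.049). SEM1, a small lid subunit, rose by 0.83 in the FHL1 deletion (adjusted p = 0.041). ADD66 and SEM1 were named after their values were seen. UBP6, a deubiquitinase that binds the base, differed by 0.074 in the FHL1 deletion, and NAS2, a base chaperone, was not tested. POC4 passed in the FHL1 deletion under all 20 alternative settings, and IRC25 lost the call only without the second WT array (adjusted p = 0.058).

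**Figure D4:**
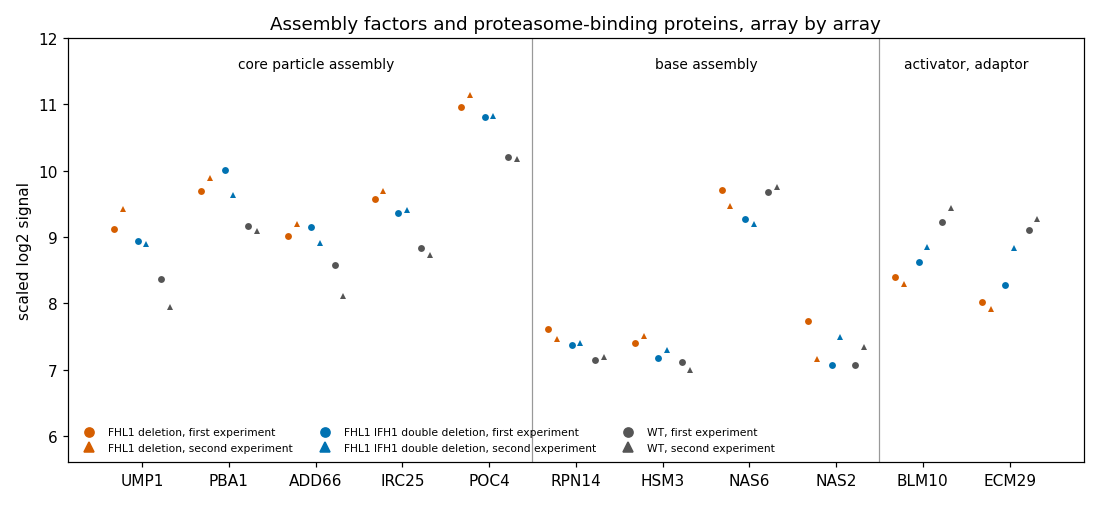
Scaled log2 signal (vertical axis) of genes for core particle assembly, base assembly and the binding proteins BLM10 and ECM29 (horizontal axis), array by array. All 5 genes of core particle assembly lie above WT on every mutant array. Those of base assembly differ less and in either direction, and BLM10 and ECM29 lie below WT. Among all genes tested, FHL1 deletion arrays both lay above WT for 34.1%, and double deletion arrays for 31.5%. The lists were chosen with earlier results known, and ADD66 was named after its values were seen. The contrast between core and base assembly was not tested.

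BLM10 and ECM29, large proteins that bind the finished or maturing particle, lay below WT on every mutant array. BLM10 encodes an activator that caps the ends of the core in place of the regulatory particle. It had 8.39 and 8.28 in the FHL1 deletion, 8.63 and 8.85 in double deletion cells, and 9.23 and 9.44 in WT, and it fell in both mutants, with differences of -1.00 (SE 0.15, adjusted p = 0.0064) and -0.60 (adjusted p = 0.038). It lost the call in the FHL1 deletion only without the second WT array (-0.89, adjusted p = 0.052), and in the double deletion it passed under 12 of 20 alternative settings. ECM29 encodes an adaptor that holds core and regulatory particle together and is known in the quality control of proteasomes. It had 8.03 and 7.91 in the FHL1 deletion, 8.27 and 8.83 in double deletion cells, and 9.10 and 9.27 in WT. It fell in the FHL1 deletion, with a difference of -1.22 (SE 0.20, adjusted p = 0.0087), and did not pass in the double deletion, at -0.64 (SE 0.20, adjusted p = 0.070). It lost the call in the FHL1 deletion without the second WT array (-1.13, adjusted p = 0.066).

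Both falls rest on probe sets that differ among themselves. Only 4 of the 39 genes had several probe sets. ECM29 had 8, of which 7 lay lower in the FHL1 deletion, by -2.04 to -0.54. The other one, its brightest with a plain suffix, gave 0.013 in the FHL1 deletion and 0.087 in double deletion cells. ECM29 was not tested with plain-suffix probe sets alone, nor with the mean of its 8 probe sets. BLM10 had 1 probe set beside the one used, with differences of -0.25 and -0.22, and with the mean of both the BLM10 difference was -0.62 in the FHL1 deletion. RPT5 gave -0.0089 in the FHL1 deletion on the probe set used and -1.00, -0.57 and -0.40 on the other 3, which were dimmer. Differences by probe set were taken without the floor (5.63). The dimmest RPT5 probe set lay between 5.23 and 5.74, and some ECM29 probe sets lay under the floor on mutant arrays, down to 4.02. With the mean of its 4 probe sets RPT5 differed by -0.50 there and fell (limma adjusted p = 0.042). PRE3 gave 0.43 on the probe set used, and 0.56 and 0.79 on the others. For BLM10, ECM29 and RPT5 the size of the difference therefore depended on the probe set, and the cause was not tested.

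**Figure D5:**
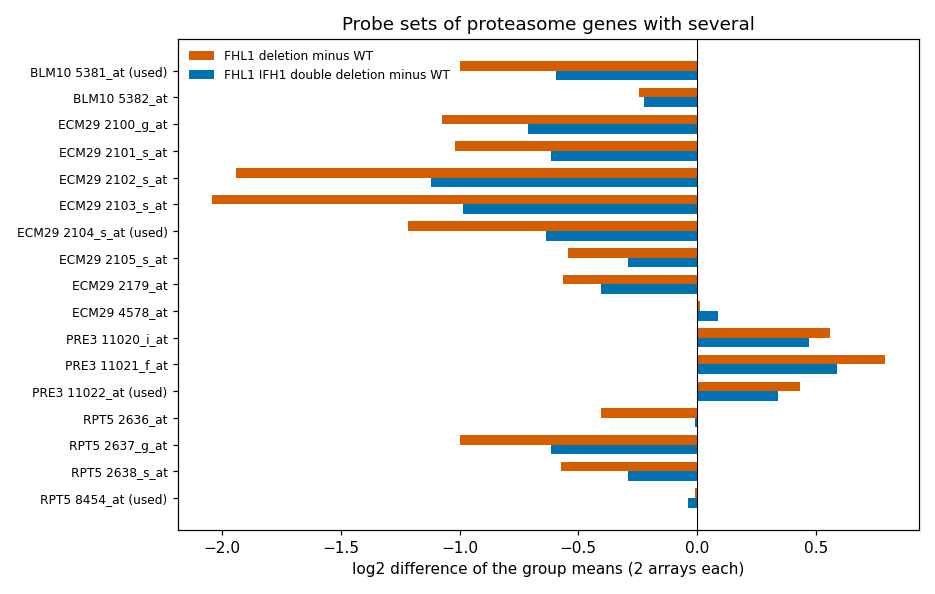
Log2 difference of the group means (horizontal axis, n = 2 arrays per group) for each probe set (vertical axis) of the 4 proteasome genes that have several, in the FHL1 deletion (orange) and the double deletion (blue) against WT. The ECM29 probe sets run between -2.04 and 0.013 in the FHL1 deletion and those of RPT5 between -1.00 and -0.0089, while those of PRE3 all lie above 0.

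RPN4, the transcription factor of the system, did not pass in either mutant. It had 9.37 and 9.52 in the FHL1 deletion, 9.58 and 9.36 in double deletion cells, and 9.50 and 9.18 in WT, and the groups overlapped. The difference was 0.10 in the FHL1 deletion (95% confidence interval -0.29 to 0.50) and 0.13 in double deletion cells (-0.27 to 0.53), with adjusted p = 0.70 and 0.64. Of the factors known to act on the RPN4 promoter, 3 of 4 were tested and none passed. HSF1, the heat shock factor gene, differed by -0.59 and -0.57 (adjusted p = 0.10 and 0.12), YAP1 by 0.39 and 0.35, and PDR1 by -0.037 and 0.048.

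Ubiquitin is activated, passed to conjugating enzymes and placed on substrates by ligases. Among ubiquitin, E1 and E2 genes 11 of 12 were tested, and in the FHL1 deletion 3 rose and none fell, with a median difference of 0.33. The shares over all genes, to be set beside the counts of this list and of the lists of ligases and shuttles, were 12.9% higher and 8.42% lower in the FHL1 deletion, and 9.78% higher and 8.46% lower in the double deletion. UBC5, a ubiquitin-conjugating enzyme gene, had 9.94 and 9.88 in the FHL1 deletion, 9.65 and 9.81 in double deletion cells, and 8.60 and 8.58 in WT. It rose by 1.32 (SE 0.14, adjusted p = 0.0028) and 1.14 (adjusted p = 0.0038), and passed under all 20 alternative settings in both comparisons. UBI4, the polyubiquitin gene used under stress, had 11.50 on both FHL1 deletion arrays, 11.21 and 11.43 in the double deletion, and 10.71 and 10.48 in WT, and rose by 0.90 (adjusted p = 0.0079) and 0.73 (adjusted p = 0.019). UBC4, the close relative of UBC5, rose by 0.45 in the FHL1 deletion (adjusted p = 0.042). In the double deletion UBC5 and UBI4 were the 2 of this list that rose, and none fell. Of 11 ligase genes tested, HUL4 (0.75, adjusted p = 0.017) and UFD4 (0.69, adjusted p = 0.041) rose in the FHL1 deletion and UFD2 fell in the double deletion (-0.54, adjusted p = 0.046), with medians of -0.27 in each mutant. Of 11 shuttle factor, CDC48 and deubiquitinase genes tested, none passed limma's test in either mutant, also at an unadjusted p under 0.05, with medians of -0.12 in the FHL1 deletion and -0.11 in double deletion cells.

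The double deletion was set against the FHL1 deletion to ask what the loss of IFH1 adds. No proteasome gene passed with limma, where 0% of all genes rose and 0.0236% (1 gene) fell. The lowest difference over all genes was -3.29, that of the deleted IFH1 itself. At an unadjusted p below 0.05, BLM10 and ECM29 were higher and PRE10 and NAS6 lower, beside 81 higher and 132 lower among all genes. The median difference was -0.087 over the 37 genes (set A -0.086, set B -0.11), against -0.021 over all genes, and 7 of the 37 lay above 0 (18.9%), where 44.6% of all genes did. Arrays did not overlap for 2 genes upward (background 12.5%) and 13 downward (background 19%). ECM29 differed by 0.58 (95% confidence interval 0.11 to 1.05, adjusted p = 0.95) and BLM10 by 0.40 (0.045 to 0.76, adjusted p = 0.95), so the double deletion means lay nearer to WT. PRE10 differed by -0.39, NAS6 by -0.35 and UMP1 by -0.35 (adjusted p = 0.95, 0.97 and 0.98). RPN2, RPN4 and PUP1 had the smallest absolute differences, at 0.0043, 0.024 and 1.3e-05. PRE8, PRE5, RPN13, RPN8 and ECM29, which passed against WT in the FHL1 deletion and not in the double deletion, were therefore not shown to differ between the mutants (adjusted p = 0.95 to 0.999).

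The counts also moved with the scaling of the arrays. With the deposited scaling, which puts the median of all genes at 0.13 for the FHL1 deletion and at 0.087 for the double deletion, 8 of the 37 proteasome genes rose in the FHL1 deletion and 2 fell (background 18.1% and 6.29%), and 2 rose and none fell in the double deletion (background 12.3% and 6.34%). With arrays set to the median over genes, the FHL1 deletion had 2 that rose and 2 that fell (background 10.8% and 10.2%). The median difference of the 37 genes was 0.35, 0.24 and 0.19 in the FHL1 deletion with the deposited scaling, quantile normalization and the median over genes. RPT1 and RPT5 lay just below 0 in the FHL1 deletion and turned to 0.098 and 0.10 with the deposited scaling. The directions of the called genes UMP1, BLM10, ECM29, PRE8, PRE5, RPN13, RPN8 and PRE2 held under each scaling.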

How the data were processed

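The authors deposited log2 summaries of 9335 probe sets on each of 6 arrays. That they are log2 was inferred from their range (1.60 to 14.8), and their summarization and normalization are not given in the sources used. The platform annotation named 1 gene for 6504 probe sets, giving 5656 genes. Each array's median over these probe sets was set equal, values below their 10th percentile were floored at it (5.63), and the dimmest 25% of genes were dropped. The comparisons used limma (version 3.58.1, under R 4.3.3), with lmFit over all 6 arrays, a mean for each group, eBayes with a trend and 3 residual degrees of freedom, with Benjamini-Hochberg adjustment over 4242 genes. The code was tested on simulated data. Members and lists were chosen with earlier results of these data known. Array values are given for PRE2, RPN4, members past the threshold and the 3 largest and smallest differences in each comparison. From each other list, up to 3 members past the threshold with the smallest p were named. The number of arrays limits the precision. Experiment numbers did not pair the arrays in every comparison. Deviations of same-numbered arrays correlated at 0.42 between the double deletion and WT, where these arrays share a set. They correlated at -0.38 between the FHL1 deletion and WT and at -0.63 between the mutants, where the sets differ. Alternatives covered scaling, floor, filter, probe sets, blocks and arrays left out. No genome build is named, so no coordinates are given.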

Additional observations from a re-analysis of the deposited data

How the results depend on the processing

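PRE2 fell in both mutants under all 20 alternatives. Of the other 37 genes, the FHL1 deletion had 5 that rose and 2 that fell (median 0.24), and the double deletion 1 and 1 (median 0.14). Percentages in brackets are the shares of all genes called in the same direction under the same setting. In the FHL1 deletion 8 rose with the deposited scaling (18.1%, median 0.35), 2 without the filter (7.48%) and 3 without the trend (12.6%). With only the arrays compared 3 rose (12.2%), and with the experiment number as a block 1 rose (6.98%). With array set as a block 14 rose (23.7%), and with the median over genes 2 rose (10.8%). With plain-suffix probe sets 1 fell (8.18%), because ECM29 was not tested. With probe sets averaged per gene 6 rose (12.9%) and 2 fell (8.60%), with RPT5 among the 2. In the double deletion the deposited scaling gave 2 that rose (12.3%) and 0 that fell (6.34%), with a median of 0.22. No filter gave 0 (4.24%) and 0 (3.91%). The experiment number as a replicate block gave 0 (3.87%) and 0 (3.56%), and array set as a block gave 5 (19.2%) and 3 (18.0%). There 0 fell with probe sets averaged per gene (8.49%), and without the arrays with MATa markers the median was 0.21. Leaving out 1 array at a time gave medians of 0.15 to 0.34 in the FHL1 deletion and 0.035 to 0.25 in the double deletion. The lone array was then assumed to vary like the other groups. The median over genes and the plain-suffix probe sets were added after seeing the data. Apart from where stated, the cause was not tested. Over single genes, 3012 comparisons kept their side of the threshold, 140 lost it and 64 gained it, with no reversal of a call. The number of arrays limits the precision, the authors' preprocessing is not given in the sources used here, and dim probe sets were left out or raised to the floor.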
